A study of Homo sapiens with 28 samples.

Results

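The 5 genes of the NF-kB family, NFKB1, NFKB2, RELA, REL and RELB, were read as a set in U937, a human monocytic cell line, among 56809 genes quantified. They were chosen by name, as the complete list of NF-kB subunit genes, and all 5 passed the filter on low counts. The 28 polyadenylated RNA libraries came from 14 U937 clones, each sequenced untreated and after LPS (lipopolysaccharide, a bacterial outer membrane component sensed by TLR4) at 500 ng/ml, both labelled 6 h. Of the 12 groups of genotype and treatment, the controls (CTR, 3 clones) carry non-specific guide RNAs, and the knockouts target p50 (2 clones), p52 (2), p65 (3), cREL (2) and RELB (2). These names are proteins: p50 is encoded by NFKB1, p52 by NFKB2, p65 by RELA, cREL by REL and RELB by the gene of that name. A replicate is a clone, so the spread between replicates is the spread between clones of a genotype. The labels give 3 sample batches, A to C: batch A holds no CTR clone, and the p65 clones lie in A and C only. Guide sites and protein levels were not analysed here.

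NF-kB proteins act as dimers that bind kB sites in DNA. RELA, REL and RELB carry a transactivation domain. NFKB1 and NFKB2 encode the precursors p105 and p100, which are processed to p50 and p52 and lack such a domain. In resting cells IkB proteins hold the dimers in the cytoplasm. TLR4 signalling through the IKK complex degrades IkB and frees p50-RELA and p50-cREL dimers, while a slower route through the kinase NIK (MAP3K14) processes p100 and frees p52-RELB. Several subunit and IkB genes carry kB sites themselves and are known as NF-kB targets, so loss of a subunit can in principle alter the mRNA of the others.

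Library totals ran from 12643438 to 22122428 estimated counts, with 22783 to 25837 genes above 0. In TPM, an abundance scaled by gene length and library total, the monocytic markers CD33, LYZ and CD68 were present in all 28 libraries, and summed TPM of the 10 monocytic markers ran from 1700 to 5322. MPO, a marker of this list, was at 0 in 18 libraries. The T cell marker CD3D, the B cell marker MS4A1 and the platelet marker PF4 were at 0 in all libraries. NKG7, a cytotoxic granule gene, averaged 339.8 TPM in these libraries. In bulk libraries, fewer cells with a transcript and less transcript per cell cannot be told apart.

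The genes lie on 5 chromosomes (GRCh38, GENCODE 29): NFKB1 at chr4:102501329-102617302, NFKB2 at chr10:102394110-102402529, REL at chr2:60881521-60931610 and RELB at chr19:45001430-45038198, all on the plus strand, and RELA at chr11:65653596-65663094 on the minus strand. RELA overlaps the lincRNA AP001362.2 on the opposite strand, and REL overlaps RNU4-51P and AC010733.2 on its own strand; each of those averaged under 1 TPM. RefSeq promoter windows (GRCh38.p14), 250 bases before to 50 after a start, were used for 4 of the 5 genes, and that of RELB was not analysed here. The windows were searched on both strands for the kB decamer, the consensus bound by NF-kB dimers. It occurred in 2075 of all 35116 windows (5.91%). Matches were found in 1 of 2 NFKB1 windows, 2 of 3 NFKB2 windows and the REL window, and in neither RELA window. The matches in NFKB1 and NFKB2 are shown because these subunit mRNAs fell with LPS over the mean of the knockouts. The match in REL, which did not fall in that comparison, is shown beside them. Capitals mark the match, all letters are the plus strand, and overlapping matches on the opposite strand are not repeated.
NFKB1, upstream of the gene, chr4:102501250-102501328: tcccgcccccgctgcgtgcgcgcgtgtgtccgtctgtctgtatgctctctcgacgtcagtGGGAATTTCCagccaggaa
NFKB2, exon, chr10:102394461-102394490: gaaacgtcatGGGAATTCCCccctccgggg
NFKB2, exon, chr10:102394490-102394519: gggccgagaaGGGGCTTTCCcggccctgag
NFKB2, intron, chr10:102395469-102395598: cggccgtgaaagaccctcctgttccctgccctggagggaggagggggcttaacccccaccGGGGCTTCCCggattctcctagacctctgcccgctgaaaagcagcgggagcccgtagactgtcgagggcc
NFKB2, exon, chr10:102395674-102395703: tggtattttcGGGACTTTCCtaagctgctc
REL, exon, chr2:60881517-60881546: cgtcagccgcGGGAAATTCCcctcccgcca
A match is a run of letters, and binding was not measured. The RELA windows hold no such run within 300 bases each.

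In untreated CTR clones RELA was the most abundant subunit mRNA per length, at 27.1 ± 3.95 TPM (SD, n = 3), followed by REL at 11.2 ± 0.86 TPM. RELB at 7.91 ± 5.47, NFKB1 at 6.94 ± 2.08 and NFKB2 at 1.82 ± 1.05 TPM came next. RELA was above REL in all 6 CTR libraries and NFKB2 was lowest in all 28 libraries, whereas RELB and NFKB1 in untreated CTR overlapped. Over all libraries RELA ranked first in 24 of 28; the exceptions were the 4 libraries of p65 replicates 2 and 3, where REL ranked first.

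The summed TPM of the 5 genes stood at 55.0 ± 12.1 in untreated CTR and 87.3 ± 11.2 with LPS (SD, n = 3). RELA made up 49.9 ± 3.83% of that sum untreated and 37.7 ± 2.86% with LPS. The share of RELB stood at 13.5 ± 6.39% and 24.5 ± 3.09%, and that of NFKB2 at 3.24 ± 1.52% and 7.45 ± 0.96%. With LPS, the summed TPM was 37.2 to 72.5 in the 9 p50, p52, p65 and cREL libraries, below the CTR range of 75.9 to 98.2. The RELB clones held 65.8 and 84.5, the second within the CTR range. These sums and shares are given without a test.

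**Figure D1:**
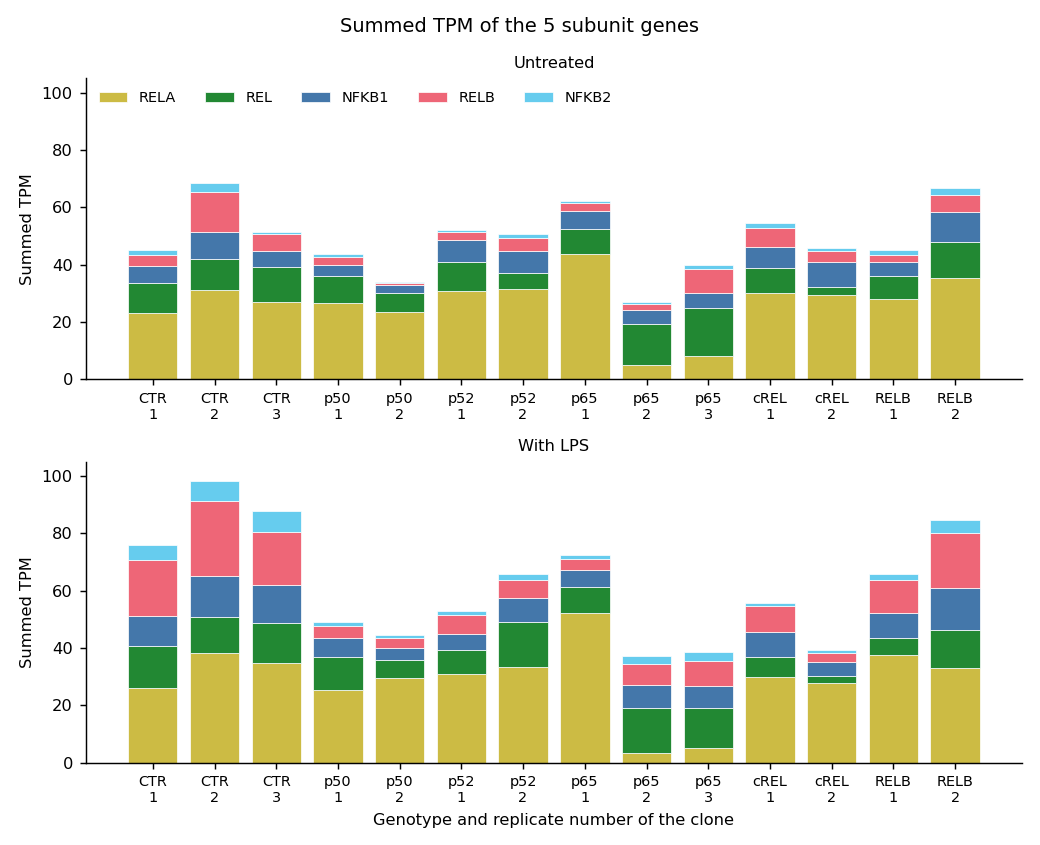
Stacked bars of TPM (y axis, from 0) for the 5 subunit genes in each library (x axis: genotype and replicate number), untreated above and with LPS below. RELA is the tallest segment in 24 of 28 libraries, and the 3 CTR libraries with LPS reach 75.9 to 98.2 summed TPM.

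Comparisons of a gene between groups use CPM, counts relative to library totals scaled by the TMM method, and log2 folds from edgeR's quasi-likelihood test with batch as a term. Adjusted p is the Benjamini-Hochberg value over the 18624 genes tested in that comparison, and a gene rose, fell or changed where it was under 0.05. All knockout comparisons share the same CTR libraries and so are not independent of each other. Untreated and LPS libraries of a clone enter as separate samples, so p-values of knockouts against CTR may be too small.

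NFKB1, which encodes p105 and p50, stood in untreated CTR at 13.4, 21.5 and 11.9 CPM in replicates 1 to 3, and with LPS at 25.1, 27.8 and 33.2. Every CTR clone was higher with LPS, with no overlap between treatments. In the p50 clones, where NFKB1 is the target, it stood at 6.10 and 5.22 CPM untreated and at 10.9 and 6.65 with LPS. The untreated values were below all other untreated libraries. NFKB1 fell in p50 against CTR with LPS, in both clones, by 1.70 ± 0.31 on the log2 scale (SE; edgeR adjusted p = 0.0387). Of all genes, 0.129% changed in that comparison. Untreated the fold was −1.39 ± 0.31 (edgeR adjusted p = 0.44), in a comparison where 0% of genes passed. The call with LPS was lost without either p50 clone and without any 1 CTR clone, p52 clone or cREL clone (edgeR adjusted p 0.0541 to 0.539). It was also lost without the batch term (edgeR adjusted p = 0.0661), with an effective length offset (0.192) and in limma voom with clone as a random replicate block (0.0898).

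NFKB1 in the other knockouts was near CTR untreated and lower with LPS. Untreated, the p52 clones held 17.3 and 13.0 CPM, the p65 clones 12, 11.8 and 9.30, the cREL clones 15.2 and 17.8, and the RELB clones 11.6 and 13.7. With LPS, the same clones held 14.7 and 11.5 (p52), 9.28, 18.5 and 15.7 (p65), 21.4 and 13.7 (cREL), and 16.9 and 25.1 CPM (RELB). Thus 8 of these 9 clones were below the lowest CTR library with LPS, against 3 of 9 untreated. The folds with LPS were −1.10 ± 0.31 in p52, −0.87 ± 0.25 in p65, −0.70 ± 0.30 in cREL and −0.43 ± 0.30 in RELB (SE; edgeR adjusted p 0.102 to 0.676), so none passed. Within batch B, which has 1 CTR clone, NFKB1 with LPS stood −1.27 from CTR in p50, −0.88 in p52, −0.36 in cREL and −0.14 in RELB, in log2(CPM + 1). Within batch C, with 2 clones of each, p65 stood −0.73 from CTR. Batch A has no CTR library, so it gives no such value.

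NFKB2, which encodes p100 and p52, had the fewest reads of the 5, from 11 estimated counts (95% exact Poisson interval 5.49 to 19.7) to 262. In CTR it stood at 4.19, 5.47 and 1.5 CPM untreated and at 12.1, 11.6 and 15 with LPS. All 3 CTR clones were higher with LPS, without overlap. With LPS the p50 clones held 2.38 and 1.63 CPM, the p52 clones 2.64 and 3.45, the p65 clones 1.84, 4.07 and 5.09, the cREL clones 2.02 and 1.96, and the RELB clones 4.24 and 5.67. All 11 knockout clones were thus below the lowest CTR library with LPS, and NFKB2 was no lower in its own knockout than in the p50 or cREL clones. Untreated, 4 of 11 were below the lowest CTR library: the knockouts ran from 0.645 to 2.90 CPM, with a median of 1.74.

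With LPS, the fold of NFKB2 against CTR was −2.41 ± 0.55 in p50, −2.39 ± 0.54 in cREL, −1.74 ± 0.53 in p52, −1.73 ± 0.42 in p65 and −1.10 ± 0.52 in RELB (SE). No single knockout passed (edgeR adjusted p 0.0531 to 0.498). In the fit without p65 replicate 1, NFKB2 passed in p50 (−2.82, edgeR adjusted p = 0.0262) and cREL (−2.83, edgeR adjusted p = 0.0291), and without CTR replicate 3 it passed in p65 (−1.70, edgeR adjusted p = 0.0491). DESeq2's Wald test called NFKB2 in p50, p52, p65 and cREL (adjusted p 0.0018 to 0.0432), and limma voom with clone as a random replicate block called it in p65 (adjusted p = 0.0332). Most alternative fits did not call it: NFKB2 passed in 3 of 20 for p50, 3 of 20 for cREL, 1 of 20 for p52 and 4 of 21 for p65. Within batch B the differences with LPS in log2(CPM + 1) were −1.90 in p50, −1.79 in p52, −2.06 in cREL and −0.91 in RELB. Within batch C, p65 stood −1.38 from CTR.

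RELB encodes the transactivating partner of p52. In CTR it stood at 5.93, 15.5 and 4.89 CPM untreated and at 19.8, 24.8 and 22.8 with LPS, so each CTR clone was higher with LPS and CTR replicate 2 stood apart from the others at rest. With LPS the p50 clones held 4.29 and 1.96 CPM, the p52 clones 9.30 and 6.58, the p65 clones 3.58, 8.38 and 10.3, the cREL clones 12.1 and 4.91, and the RELB clones 8.75 and 13.6. All 11 knockout clones were below the lowest CTR library with LPS, and the own knockout was among the higher of them. Untreated, 9 of 11 were below the lowest CTR library, and the range ran from 0.762 CPM in p50 replicate 2 (13 estimated counts, 95% exact Poisson interval 6.92 to 22.2) to 9.52 in p65 replicate 3.

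The fold of RELB against CTR with LPS was −2.74 ± 0.58 in p50 (SE; edgeR adjusted p = 0.0589), −1.33 ± 0.54 in cREL, −1.30 ± 0.43 in p65, −1.28 ± 0.54 in p52 and −0.82 ± 0.54 in the RELB knockout (edgeR adjusted p 0.179 to 0.652). The p50 value passed without p65 replicate 1 (edgeR adjusted p = 0.0303) and with DESeq2 (adjusted p = 4.2e-04). It passed in 4 of 20 alternative fits, so most did not call it. Within batch B the p50 clone stood −2.29 from CTR in log2(CPM + 1), and the p52, cREL and RELB clones −1.32, −0.97 and −0.83. Within batch C the p65 clones stood −1.11 from CTR.

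RELA encodes p65, the main transactivating subunit of the IkB-controlled dimers. Outside the p65 knockout it ran from 43.9 to 65.7 CPM over 22 libraries. In p65 replicates 2 and 3 it stood at 3.73 and 8.36 CPM untreated and 3.67 and 7.33 with LPS, below all of those. The libraries labelled p65 replicate 1 held 53.6 and 58.3 CPM, within the range of the other genotypes, so the targeted mRNA was not lower there. In the effective length of RELA, given below, this clone lay with the other p65 clones. This clone lies in batch A, which has no CTR clone, and its RELA level shifts the batch A estimate. RELA folds are therefore given from the fit without it: −2.94 ± 0.31 untreated (SE; edgeR adjusted p = 4.2e-04) and −3.34 ± 0.32 with LPS (edgeR adjusted p = 4.4e-05), lower in 2 of 2 clones. In those comparisons 0.0108% and 0.401% of genes changed. The clone p65 replicate 1 was left out for its RELA level, so these p-values do not test RELA in p65. With it in the fit, RELA in p65 passed at neither treatment. With that clone the values were −2.13 ± 0.55 and −2.37 ± 0.56 (SE; edgeR adjusted p = 0.179 and 0.051).

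Without p65 replicate 1, RELA did not pass in any knockout of another subunit. Its fold against CTR in that fit lay between −0.13 ± 0.32 (RELB) and 0.10 ± 0.32 (p52) untreated and between −0.25 ± 0.32 (p50) and −0.01 ± 0.32 (RELB) with LPS (SE; edgeR adjusted p 0.848 to 1). In the 8 clones of those knockouts RELA stood at 43.9 to 53.8 CPM untreated, against 46.7 to 48.1 in CTR, and at 45.1 to 65.7 with LPS, against 50.8 to 61.2. The ranges overlapped at both treatments. With p65 replicate 1 in the fit, the RELA folds in these 4 knockouts were −1.51 to −1.28 untreated and −1.65 to −1.42 with LPS (edgeR adjusted p 0.413 to 0.883). All 8 passed without the low-count filter (edgeR adjusted p 3.8e-05 to 0.0152) and without CTR replicate 2, though the levels overlapped. With LPS in CTR the RELA fold was 0.23 ± 0.23 (SE; edgeR adjusted p = 1).

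REL encodes cREL, a transactivating subunit of blood cells. In CTR it stood at 31.8, 32.7 and 34.0 CPM untreated and at 46.1, 36.8 and 38.6 with LPS. The cREL clones differed from each other: replicate 1 held 26.0 and 23.9 CPM and replicate 2 held 10.5 and 8.19, untreated and with LPS. With LPS both were below all other clones, whose lowest was 25.7 CPM. Against CTR the fold was −0.65 ± 0.34 untreated (SE; edgeR adjusted p = 0.883) and −1.15 ± 0.34 with LPS (edgeR adjusted p = 0.229), and it passed with LPS without cREL replicate 1 (−1.97, edgeR adjusted p = 0.0184). In the knockouts of the other subunits REL ran from 18.5 to 37.2 CPM untreated and from 25.7 to 45.1 with LPS, and 7 of these 9 clones lay below the lowest CTR library at each treatment. The folds were −0.32 to 0.15 and −0.12 to 0.05, none of which passed (edgeR adjusted p 0.879 to 0.991 and 0.947 to 0.987). Within batch B, REL untreated stood −0.20 from CTR in p50, −0.34 in p52 and −0.41 in RELB, in log2(CPM + 1). With LPS these differences were −0.15, −0.50 and −0.06. Within batch C, p65 stood 0.16 from CTR untreated and −0.06 with LPS.

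**Figure D2:**
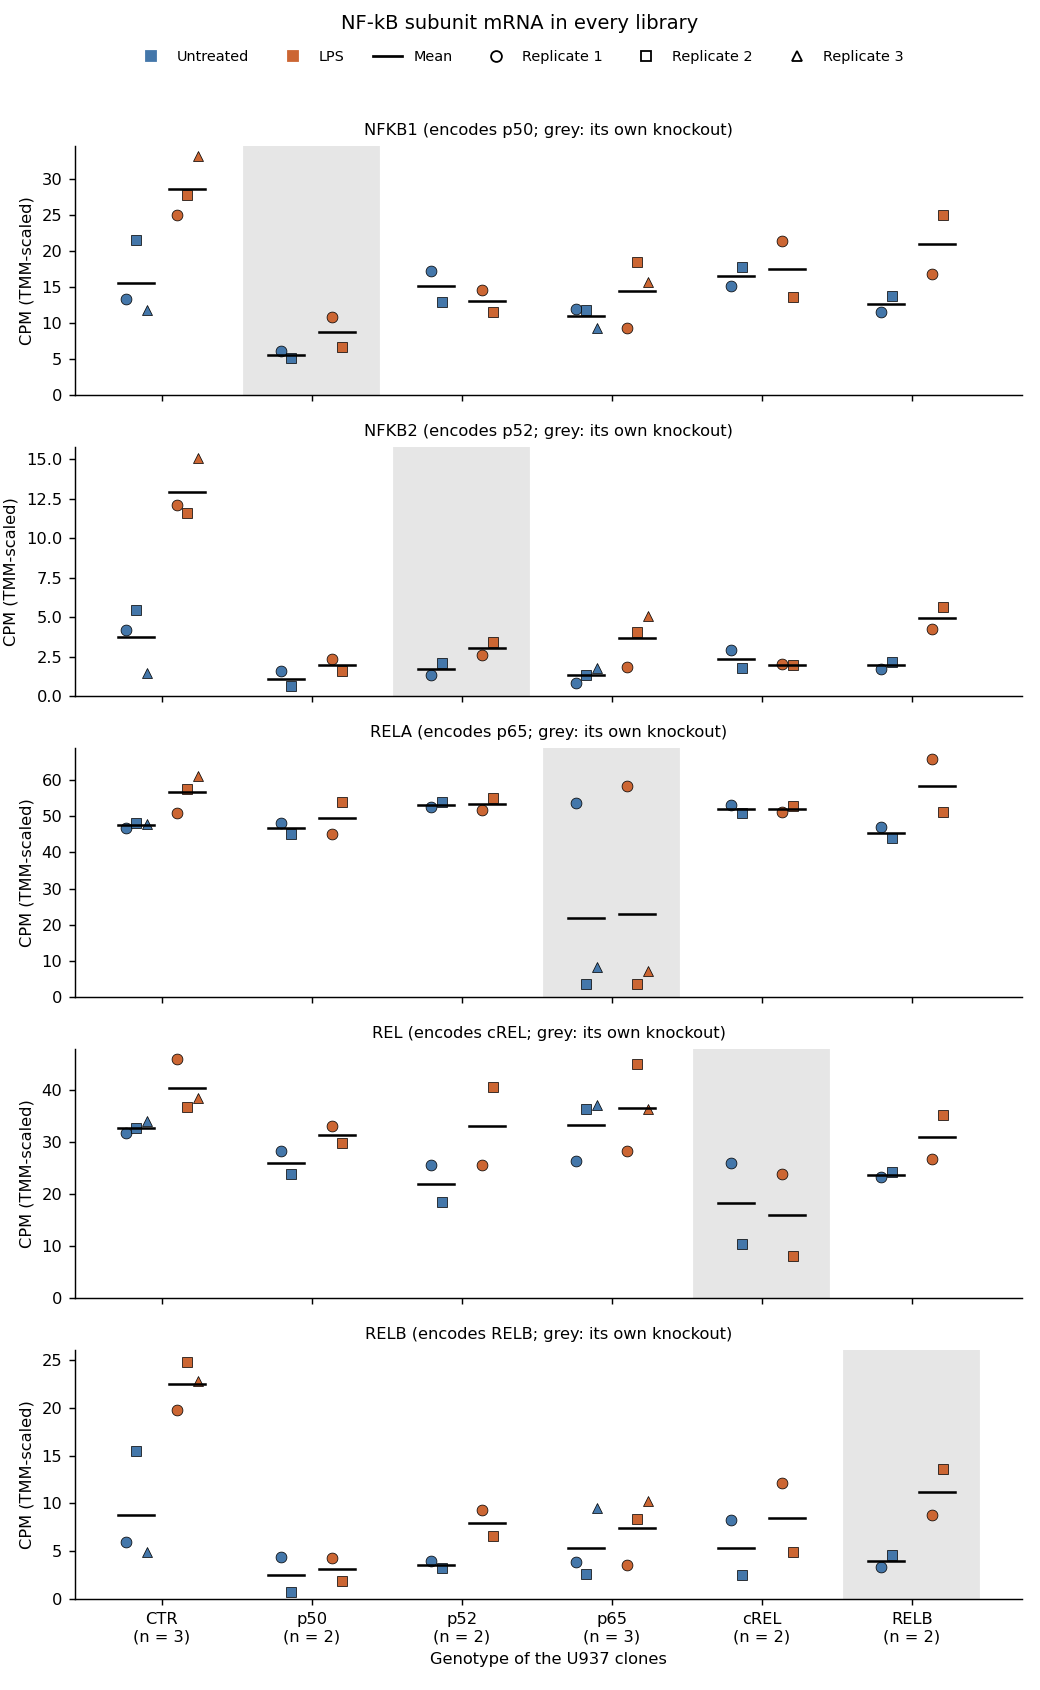
CPM (y axes, linear from 0) of each subunit gene in every library by genotype (x axis); points are clones, blue untreated and orange with LPS, lines are group means, and grey marks the knockout of the gene itself. With LPS, NFKB2 lies at 1.63 to 5.67 CPM in the knockouts against 11.6 to 15 in CTR, and RELB at 1.96 to 13.6 against 19.8 to 24.8.

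Over the 25 pairs of a subunit gene and a knockout, 0 passed untreated in edgeR (7 had an unadjusted p under 0.05, and 2 passed in DESeq2) and 1 passed with LPS (19 had an unadjusted p under 0.05, and 9 passed in DESeq2). The counts in edgeR include RELA pairs that rest on the batch A term. With LPS, 5 pairs passed without p65 replicate 1: NFKB1, NFKB2 and RELB in p50, NFKB2 in cREL and RELA in p65. The pass of RELA in p65 is no test, since that clone was left out for its RELA level. In edgeR with all clones, the share of all genes that changed untreated was 0% in p50, p52 and cREL, 0.0537% in p65 and 0.0107% in RELB. With LPS it was 0.129% in p50, 0.0698% in p52, 0.993% in p65, 0.199% in cREL and 0.0483% in RELB. For DESeq2 this share is not given here, and without p65 replicate 1 it is given for p65 only. The member counts from those fits are therefore not read as a result about the members.

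As a further comparison, chosen after the data were seen, the mean of the 5 knockouts was set against CTR. NFKB2 fell with LPS by 1.88 ± 0.35 on the log2 scale, in 11 of 11 clones (SE; edgeR adjusted p = 0.0122), and NFKB1 fell by 0.96 ± 0.21 on the log2 scale (SE; edgeR adjusted p = 0.0334). RELB stood at −1.49 ± 0.37 (edgeR adjusted p = 0.0577). Of all genes, 0.838% changed in this comparison. With the knockout of the gene itself left out of the mean, NFKB2 stood at −1.91 (edgeR adjusted p = 0.0147), RELB at −1.66 (edgeR adjusted p = 0.0233) and NFKB1 at −0.77 (edgeR adjusted p = 0.107). Thus the call for NFKB1 included the low level in its own knockout, while NFKB2 and RELB passed over the knockouts of other subunits. RELB did not pass over all 5 knockouts in the reported fit. It passed in 5 of 21 alternative fits, the one without its own knockout included. Among 5 T and NK markers tested in the same comparison, IL7R (−1.75) and TRAC (−1.36) fell; their part in the result was not tested.

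The NFKB2 call was lost without CTR replicate 2 (−1.32, edgeR adjusted p = 0.41), the CTR clone of batch B, and held without each other clone. RELB over all 5 knockouts with LPS stood at −1.18 without CTR replicate 2 (edgeR adjusted p = 0.529). The NFKB1 call held without p65 replicate 1, p65 replicate 2 or RELB replicate 1 and was lost without each of the 11 other clones (edgeR adjusted p 0.0502 to 0.355). It was also lost in limma voom with clone as a random replicate block (−0.89, adjusted p = 0.0908) and with an effective length offset (−0.86, edgeR adjusted p = 0.0836). Untreated, 0.0322% of genes changed in the mean of the 5 knockouts, and 0 members passed in edgeR. NFKB2 stood at −0.96 ± 0.35 and RELB at −0.86 ± 0.36 (SE; edgeR unadjusted p = 0.013 and 0.0262, adjusted p = 0.413 and 0.499). RELA also had an unadjusted p under 0.05 there and was the 1 member called by DESeq2, with the batch A term as above. Without CTR replicate 2, which leaves batch B with no CTR clone, the untreated folds of NFKB2 and RELB were 0.073 and −0.043. CTR replicate 1, at 4.19 CPM of NFKB2, also lay above all 11 untreated knockout clones.

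**Figure D3:**
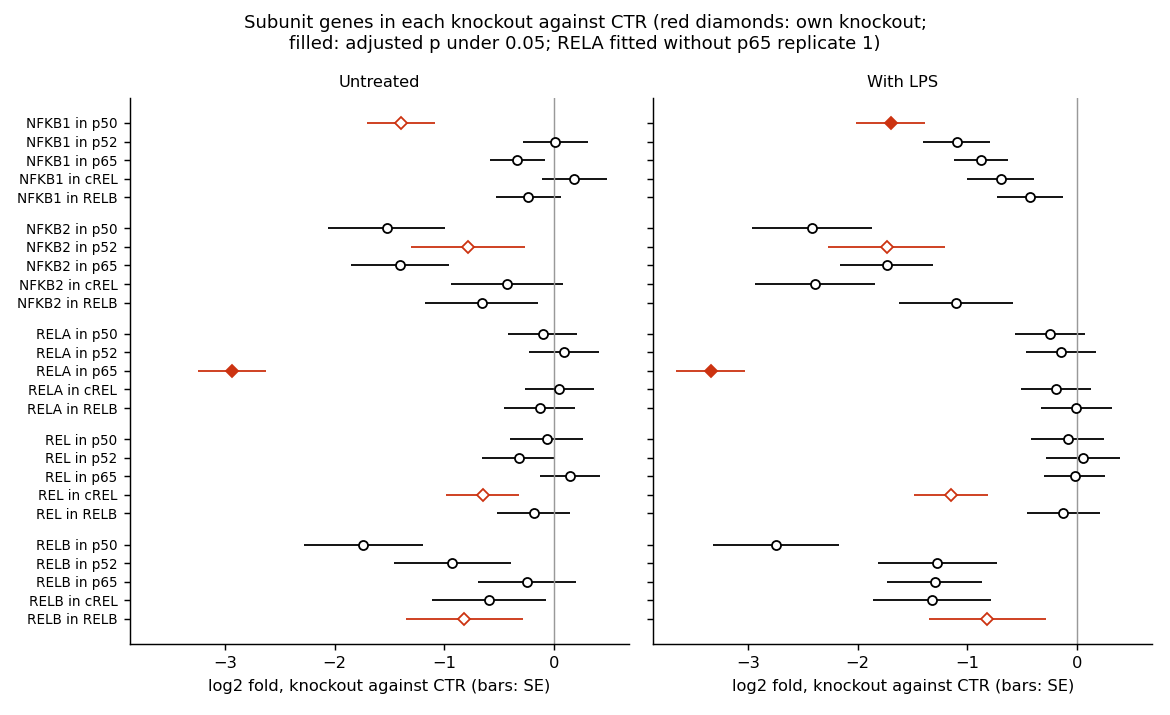
Log2 folds of each subunit gene in each knockout against CTR (x axes; bars are SE), untreated on the left and with LPS on the right; red diamonds mark the knockout of the gene itself and filled symbols an adjusted p under 0.05. RELA is fitted without p65 replicate 1, which was left out for its RELA level. With all p65 clones, RELA in p65 did not pass at either treatment. With LPS all 15 folds of NFKB1, NFKB2 and RELB lie below 0, while REL and RELA lie near 0 outside their own knockouts.

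LPS against untreated was then read within each genotype. In CTR the log2 fold was 1.77 ± 0.42 for NFKB2, 1.46 ± 0.44 for RELB and 0.91 ± 0.25 for NFKB1 (SE; edgeR adjusted p = 0.0844, 0.307 and 0.192; each higher in 3 of 3 clones). With each clone as a replicate block, NFKB2 rose by 1.91 ± 0.37 and RELB by 1.52 ± 0.34 (SE; edgeR adjusted p = 0.0132 and 0.0373). NFKB1 reached 0.124 there and passed with limma voom (adjusted p = 0.0462) and DESeq2 (adjusted p = 0.034). REL, at 0.30 ± 0.27 in edgeR without the block, did not pass in any of these 4 fits. Over the 30 pairs of a gene and a genotype 0 passed in edgeR without the block (7 had an unadjusted p under 0.05, and limma voom called 3 and DESeq2 2). Of all genes, 0.408% changed in CTR, 0.0161% in p50, 0.0215% in p52, 0.0268% in p65, 0.0107% in cREL and 0.129% in RELB. These shares are from edgeR without the block, and those of limma voom and DESeq2 are not given here.

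In the RELB clones the LPS folds were 1.46 ± 0.54 for RELB, 1.33 ± 0.53 for NFKB2 and 0.71 ± 0.30 for NFKB1 (SE; each edgeR adjusted p = 1; higher in 2 of 2 clones). In the p65 clones NFKB2 stood at 1.44 ± 0.43 and RELB at 0.41 ± 0.43 (SE; edgeR adjusted p = 1). In the cREL clones NFKB2 stood at −0.19 ± 0.53 and NFKB1 at 0.03 ± 0.30, and in the p52 clones NFKB1 stood at −0.21 ± 0.30 (SE; edgeR adjusted p = 1). Per clone, in log2(CPM + 1), the NFKB2 response was 0.96 to 2.68 in CTR, 0.94 and 1.07 in RELB, and −0.37 to 1.13 over the 9 clones of p50, p52, p65 and cREL. NFKB1 was higher with LPS in 5 of those 9 clones, NFKB2 in 8, RELB in 7, REL in 6 and RELA in 4.

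**Figure D4:**
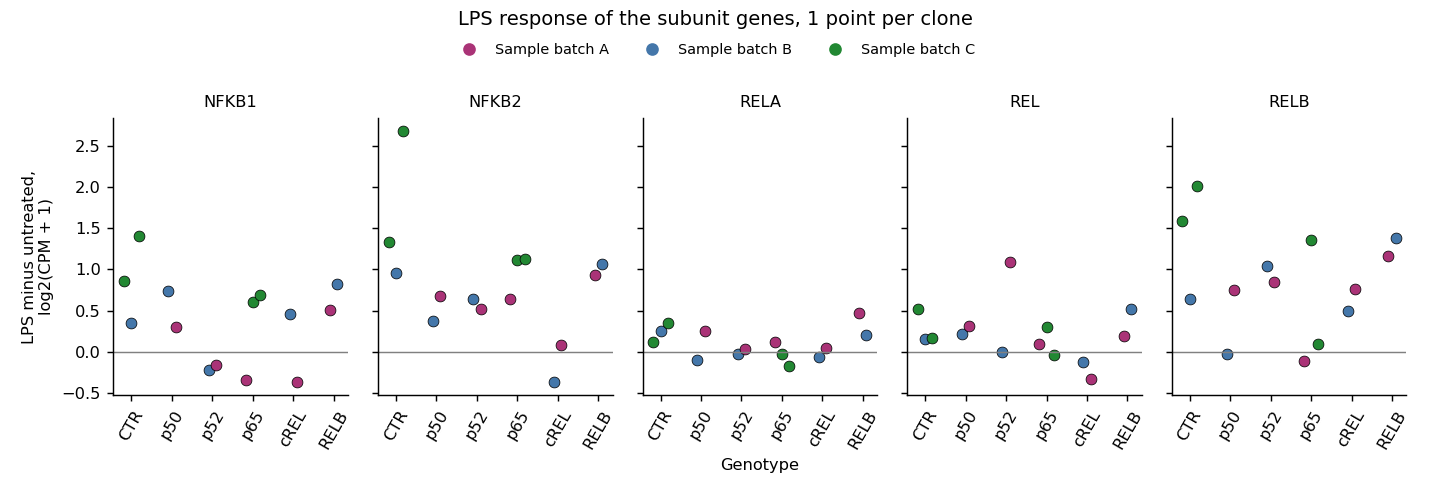
LPS response of each gene per clone, as log2(CPM + 1) with LPS minus untreated (y axis), by genotype (x axis) and coloured by sample batch; each point is 1 clone. All 3 CTR clones and both RELB clones lie above 0 for all 5 genes, while the 9 other knockout clones lie on both sides of 0 for every gene, with 8 above 0 for NFKB2.

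The difference between a knockout's response and that of CTR was tested directly. The differences with an unadjusted p under 0.05 were −1.96 ± 0.68 for NFKB2 in cREL, −1.11 ± 0.39 for NFKB1 in p52 and −0.88 ± 0.39 for NFKB1 in cREL (SE; each edgeR adjusted p = 1). None of the 25 differences passed in edgeR or in any other fit run, DESeq2 and limma voom included. Of all genes, 0.0161% differed for p65 and 0% for p50, p52, cREL and RELB; for the mean of the 5 knockouts it was 0%. The lower levels with LPS in the knockouts were therefore not shown to be a lower response.

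RELB loss was also compared with the mean of the p50, p52, p65 and cREL knockouts. This comparison was chosen because an earlier description of these data showed the RELB clones apart, so its counts are not independent support for that. With LPS, NFKB1 stood at 0.66 ± 0.23, NFKB2 at 0.97 ± 0.38 and RELB itself at 0.84 ± 0.40 (SE; edgeR adjusted p = 0.164, 0.247 and 0.345), all higher in the RELB clones without passing. Untreated, the 5 members lay between 0.03 and 0.38 (edgeR adjusted p 0.756 to 0.991). Of all genes, 0.376% changed untreated, 1.76% with LPS and 0.00537% in the difference of responses. None of the 15 member tests passed in edgeR (3 had an unadjusted p under 0.05, and limma voom and DESeq2 also called 0). Without p65 replicate 1, RELA was higher in the RELB clones with LPS (0.98, edgeR adjusted p = 0.0355), where the mean of the 4 holds the p65 clones with low RELA.

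The level of each targeted mRNA was next compared between its own knockout and all other clones, by an exact two-sided permutation test over clones on log2(CPM + 1), in 10 tests. NFKB1 in p50 differed by −1.15 untreated (exact p = 0.011, the smallest possible) and −1.01 with LPS (exact p = 0.022). REL in cREL differed by −0.72 (exact p = 0.0659) and −1.24 (exact p = 0.011), and RELA in p65 by −1.89 (exact p = 0.0302) and −2.06 (exact p = 0.0275). None passed after adjustment over the 10 tests (lowest exact adjusted p = 0.0549). With values centred on batch, NFKB1 at both treatments and REL with LPS passed (−1.18, −0.82 and −1.04; each exact adjusted p = 0.0366). NFKB2 in p52 differed by −0.13 and −0.43, and RELB in the RELB knockout by −0.17 and 0.32 (exact p 0.604 to 0.78). For NFKB2 and RELB, the own knockout thus did not stand apart from the other clones.

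The tables also give an effective length per gene and library, in bases, which depends on the transcripts to which the reads of a gene were assigned. RELA had 1867 and 1652 bases in p65 replicate 1, 1019 and 1644 in replicate 2 and 1748 and 2085 in replicate 3, untreated and with LPS. All 6 values lay below the 22 other libraries, which held 2179.9 to 2451.5. The clone labelled p65 replicate 1 therefore stood with the other p65 clones in RELA length, though not in RELA level. The mean over clones was 1669 ± 303 bases in p65 (SD, n = 3) against 2336 ± 66.3 (SD, n = 11), a difference of −667 (exact permutation p = 0.00275, the smallest possible; adjusted over 5 tests 0.0137).

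For NFKB1 the mean was 2155 ± 48.7 bases in p50 (SD, n = 2) against 2927 ± 333 (SD, n = 12), a difference of −772 (exact permutation p = 0.011, the smallest possible; adjusted 0.0275). Single libraries overlapped here, with 2014 to 2365 bases in p50 and 2025 to 3526 in the others. NFKB2 in p52, REL in cREL and RELB in the RELB knockout differed by −119, 234 and −197 bases (exact permutation p 0.396 to 0.637). Whether guide-induced deletions bear on these lengths was not tested.

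**Figure D5:**
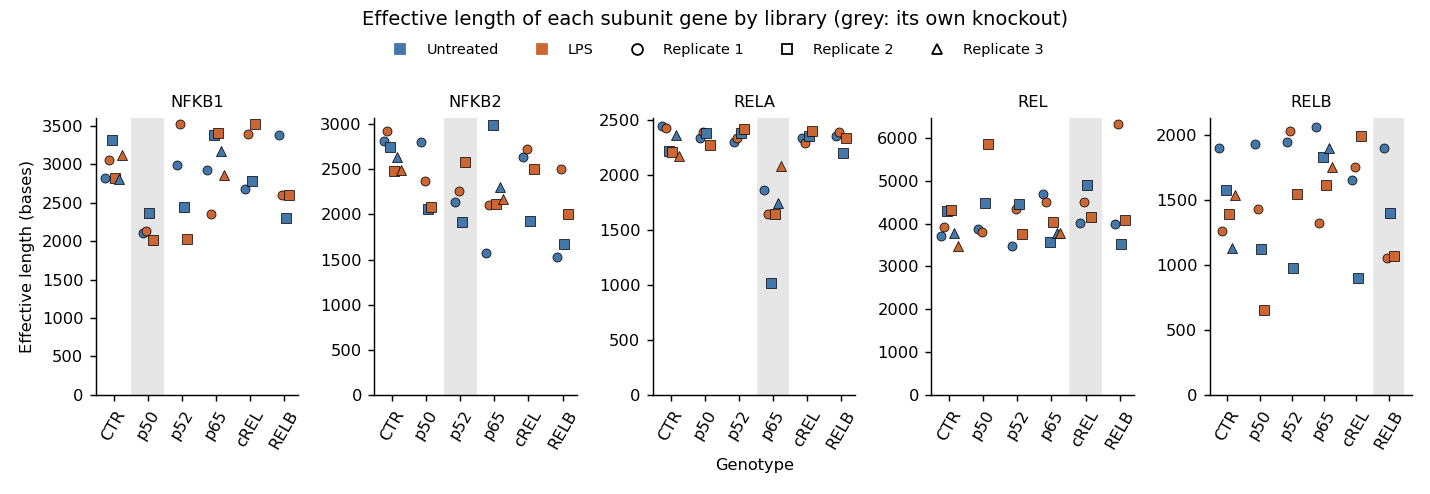
Effective length in bases (y axes, from 0) of each subunit gene in every library by genotype (x axes), blue untreated and orange with LPS, with grey marking the knockout of the gene itself. The 6 RELA values in p65 lie at 1019 to 2085 bases, below the 22 others at 2179.9 to 2451.5.

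The regulators that sit around the subunits were read from 6 lists with 43 genes, all of which were tested. With LPS in CTR, 9 of 43 rose and 0 fell, against 0.408% of all genes changed; the median log2 fold of the 43 was 0.24, and that of all genes 0.00. Among IkB proteins, which hold dimers inactive or bind them in the nucleus, NFKBIZ (3.34 ± 0.34) and NFKBIA (2.06 ± 0.26) rose (SE; edgeR adjusted p = 1.7e-05 and 2.1e-04), from 6.64 ± 1.33 to 66.9 ± 7.41 CPM and from 63.8 ± 10.8 to 266 ± 36.7 CPM (SD, n = 3). NFKBID (0.82) and NFKBIB (0.11) did not pass. Of the ubiquitin feedback genes, which curb signalling to IKK, TNFAIP3 (3.09), TNIP3 (3.79) and TNIP1 (1.22) rose, while TAX1BP1 (−0.09) and CYLD (0.79) did not pass.

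Of the TRAF and cIAP adaptors, BIRC3 (3.62), TRAF3 (1.02) and TRAF1 (3.03) rose, and TRAF2 (−0.02) and BIRC2 (0.24) did not pass. From LPS receptor to TAK1, IRAK2 rose (1.39 ± 0.18, SE; edgeR adjusted p = 2.2e-04), with MYD88 at 0.43 and IRAK1 at 0.05 not passing. None of the 6 IKK and related kinases passed, with IKBKE at 0.76 and TBK1 at 0.15 (edgeR adjusted p = 0.0965 and 1). None of the 6 genes of p105 and p100 processing passed either, with SKP1 at −0.07 and CUL1 at −0.01. Within the knockouts, NFKBIZ rose in p50 (2.46) and p52 (2.50), and NFKBIZ (2.25), NFKBIA (1.63), TNFAIP3 (3.65) and IRAK2 (1.60) rose in RELB. None of the 43 passed in p65 or cREL. With p65 replicate 1 left out, NFKBIZ no longer passed in p50 or p52 (2.48 and 2.49; edgeR adjusted p = 0.0797 and 0.0667), nor NFKBIA in RELB (1.62; edgeR adjusted p = 0.0983), while TNFAIP3 passed in p50 and p52 (2.57 and 2.26; edgeR adjusted p = 0.00147 and 0.00301).

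Against CTR with LPS, 7 of 43 fell in p65, with 0.993% of all genes changed: TNIP3 (−4.45), BIRC3 (−3.06), TNFAIP3 (−2.57), NFKBIA (−2.08), NFKBIZ (−1.68), IRAK2 (−1.19) and TNIP1 (−0.90). Without p65 replicate 1, 4 of 43 fell: NFKBIA, TNFAIP3, TNIP3 and IRAK2. In cREL, IRAK2 fell (−1.10), and in p50, p52 and RELB none passed. Without p65 replicate 1 TNFAIP3 fell in p50, p52 and cREL as well (−1.95, −1.53 and −2.27; edgeR adjusted p = 0.00895, 0.0231 and 0.00199), with TNIP3 in p52 (−3.28) and TRAF1 in cREL (−3.57). Untreated, none of the 43 passed in any knockout. In the mean of the 5 knockouts with LPS, where 0.838% of all genes changed, 5 of 43 fell: TNIP3 (−2.63), TNFAIP3 (−1.35), NFKBIA (−1.23), TNIP1 (−0.85) and IRAK2 (−0.74).

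RELB clones against the mean of the 4 other knockouts with LPS, a comparison chosen with these data known, had 6 of 43 higher and 1 lower. Of all genes, 1.76% changed there. The higher were TNIP3 (2.66), TNFAIP3 (1.79), NFKBIZ (1.59), MAP3K14 (1.49), which encodes NIK, IRAK2 (1.24) and FBXW7 (0.87), which encodes a receptor of the p100 ligase. CUL1, the scaffold of that ligase, was lower (−0.60). Untreated, where 0.376% of all genes changed, NFKBIZ was higher (1.47) and CUL1 lower (−0.74). Without p65 replicate 1, FBXW7 with LPS and NFKBIZ untreated did not pass (edgeR adjusted p = 0.0723 and 0.0613). Markers moved in that comparison with LPS as well: CD68 (1.14) and ITGAM (1.87) of 9 monocytic markers tested and IL7R (2.21) of 5 T and NK markers tested were higher in the RELB clones. IL7R also fell in p65 against CTR with LPS (−2.96). The summed TPM of the 8 T and NK markers with LPS was 350 to 500.1 in CTR, 203 to 315 in p65 and 295 to 351 in RELB, with CD3D at 0 throughout. That of the 10 monocytic markers was 1700 to 4906 in CTR, 3267 to 4913 in p65 and 3081 to 3563 in RELB. The part of these markers in the results was not tested.

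Over the 28 libraries, which share clones and CTR, log2 CPM of NFKB1, NFKB2 and RELB ran together, with Pearson's r of 0.86 between NFKB2 and RELB, 0.80 between NFKB1 and RELB and 0.77 between NFKB1 and NFKB2 (Spearman's rho 0.82, 0.71 and 0.69). REL had r of 0.44 with NFKB2, 0.43 with RELB and 0.15 with NFKB1. RELA had r of −0.34 with REL and 0.01 to 0.06 with the other 3. Among 9736 genes with a mean of at least 5 CPM, the nearest by Pearson's r over the 28 libraries were PIM1 (0.80), RELB (0.80) and ETS2 (0.79) for NFKB1, and SQSTM1 (0.88), NBPF14 (0.88) and RELB (0.86) for NFKB2. They were SLC6A6 (0.84), TRIB3 (0.84) and HLX (0.82) for RELB, MOB1A (0.88), DYSF (0.84) and CDC42EP3 (0.81) for REL, and TWF1 (0.87), RAP2C (0.85) and XIAP (0.85) for RELA. Over the 22 libraries without CTR, r was 0.68 between NFKB1 and RELB and 0.77 between NFKB2 and RELB. These correlations describe the libraries and carry no test.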

How the data were processed

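The authors deposited 3 tables: estimated counts per gene symbol, not scaled to a common total, TPM, and effective length in bases. Salmon 0.11.3, FastQC 0.11.7 and GRCh38 were used, per the submitters' processing notes; for the annotation version and options, the sources used here state nothing. In each library, count divided by TPM and length was constant to 0.00573% or better for 99% of the genes compared. Libraries were oligo(dT)-primed, PCR-amplified and read as pairs, without molecular identifiers, per the labels' protocols, so counting intervals cover counting error only.

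Counts were rounded and fitted in edgeR 4.0.16 (R 4.3.3; TMM; filterByExpr with minimum count 10 and minimum total 15; 12 groups plus batch; robust quasi-likelihood; 14 residual degrees of freedom; biological coefficient of variation 31.7%). A gene was called at an adjusted p under 0.05. The fit was tested on data simulated with a common spread and no batch or clone effects, for LPS in CTR. Changes were set only in genes with a mean of at least 5 CPM. It recovered 3 of 67 changes of 2-fold (4.48%), 63 of 67 of 4-fold (94%) and 66 of 66 of 8-fold. There were 5 false calls over 17033 genes. Changes of about 2-fold or less were thus mostly missed in that setting, so a gene that did not pass may still differ by that much. Knockout comparisons and genes of lower CPM were not simulated, and larger differences may be missed there. With LPS, NFKB2 (−2.41) and RELB (−2.74) in p50 did not pass in the reported fit. Alternatives used DESeq2 1.42.0 and limma voom 3.58.1 (consensus correlation 0.355), other scalings, filters and designs, each clone left out, and clone as a block. Untreated and LPS libraries of 1 clone pair by label, and their deviations from group means correlated at 0.203 to 0.441 in the 14 clones. In p50, p52, cREL and RELB, both clones have the same value by construction, so these values are not independent. Permutation tests ran over clones in SciPy 1.17.1 with a pseudocount of 1.

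All 56809 symbols matched GENCODE 29; promoter sequences are RefSeq's (GRCh38.p14). Besides the 5 genes, each pathway list gave up to 4 passing genes of lowest adjusted p for LPS in CTR, up to 2 others of highest CPM and every gene passing in a knockout; likeness gave 3 genes per member. The members, the lists and the comparison of RELB with the 4 other knockouts were chosen with earlier results of these data known. The ERCC spike-in was not used here.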

Additional observations from a re-analysis of the deposited data

How the results depend on the processing

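Of the 25 pairs of a subunit gene and a knockout with LPS, 1 passed in the reported fit. That count was 12 without a low-count filter, 9 with DESeq2, 2 with limma voom and clone as a random replicate block, 0 without the batch term, 0 with an effective length offset, and 0 to 5 with each clone left out (5 without p65 replicate 1 and 5, all RELA, without CTR replicate 2). Untreated, where 0 passed, it was 7 without the filter, 2 with DESeq2 and 0 to 5 with a clone left out; the 5 without CTR replicate 2 are all RELA. For LPS against untreated, 0 passed, against 2 with clone as a fixed replicate block (NFKB2 and RELB in CTR), 3 with limma voom, 2 with DESeq2, 2 without the filter and 0 to 1 with a clone left out. The replicate block changed no other member call. In the mean of the 5 knockouts, 2 passed, against 5 without the filter, 5 with DESeq2, 1 with the length offset, 1 with limma voom and 1 to 3 with a clone left out. For RELB against the mean of 4 knockouts it was 0, and 0 to 1 with a clone left out. The difference in LPS response stayed at 0 in every setting run. For most of these alternative fits the share of all genes called is not given here. A higher count of members in such a fit is therefore not read as a result about the members.

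For the targeted genes in their own knockouts, centring on batch gave −1.18 and −0.82 for NFKB1 (untreated and with LPS) and −1.04 for REL with LPS (exact permutation, each adjusted p = 0.0366, now passing). Leaving out a clone gave −2.90 to −1.14 for RELA untreated and −3.14 to −1.31 with LPS, −0.33 to 0.080 for NFKB2 untreated, −0.35 to 0.0095 for RELB untreated, and −807 to −738 bases for NFKB1 length (exact permutation adjusted p = 0.192 without either p50 clone, where 1 clone against 12 cannot go below an unadjusted p of 0.0769, so the call could not be kept). NFKB2 untreated in the mean of the 5 knockouts ran from −1.31 to 0.073 over 21 alternative fits, with the highest value without CTR replicate 2. Over 39 single folds and 807 alternatives, that highest value was the 1 change of direction. With LPS in CTR, 225 genes rose and 11 fell with the block, against 75 and 1 without it. Depth limits NFKB2 and RELB most, with as few as 11 and 13 estimated counts in a library. The causes of these changes were not tested.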
